A study of Rattus norvegicus with 4 samples.

Results

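Cycling lymphocytes, the lymphocytes of rat blood that carried RNA of proliferation genes, were examined in 4 droplet single-cell RNA-seq libraries. The cells were chosen by their measured RNA: a cell barcode counted as cycling when Mki67, Top2a, Cdk1 and Cenpf together had at least 3 UMIs (tags that count each captured RNA molecule 1 time) and hemoglobin RNA made up less than 40% of its UMIs. Of 45986 barcodes that passed the filters on UMIs, genes and mitochondrial RNA, 40470 had less than 40% hemoglobin and 268 of these were cycling. They comprised 53 barcodes in MSC-i.t, 83 in MSC-i.v, 62 in SCI and 70 in Sham. Because proliferation RNA chose them, their levels of such genes are given below as a description.

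Circulating lymphocytes mostly rest between divisions, and those that divide are chiefly recently activated T cells, plasmablasts on their way to plasma cells and NK cells. A dividing cell first loads the MCM helicase onto replication origins, then copies its DNA in S phase with the help of Pcna and of enzymes that supply nucleotides, and in G2 and mitosis builds a spindle under Cdk1, cyclins and the kinases Plk1 and Aurkb. E2F factors drive many S phase genes, whereas many mitotic genes are silenced in resting cells by the DREAM complex and carry a short promoter element, the CHR, often beside CCAAT boxes.

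Each group had 1 library, made from blood of rats in a study of spinal cord injury with 40 animals, 10 in each of 4 groups. MSC-i.t animals had the injury and received 10000000 umbilical cord mesenchymal stromal cells (UC-MSCs) per kg into the spinal canal. MSC-i.v animals had the injury and received 30000000 of these cells per kg into a vein, and both treated groups were dosed 2 times, at 72 hours and at 7 days after injury. SCI animals had the injury, made by Allen's method, and no cells. Sham was the control, although the design text counts the sham animals among the rats with induced injury. The labels do not give the time of bleeding, the number of rats behind a library or the animals' strain, age and sex, and the time tag in the names of the deposited data sets has a different form for SCI than for the other 3 libraries.

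With 1 library per group there are no replicates, so no p-values are given. A ratio sets 1 library against another and not 1 condition against another, and every 95% interval covers counting error only. Barcodes of a class were summed, and a level is a gene's share of that sum, in UMIs per 1000000 (CPM). The libraries held between 63133881 and 91124523 UMIs. Between 25 and 49 kept barcodes were shared by any pair of libraries, against 12.2 to 26.9 if drawn at random. Of the shared barcodes, 0 were cycling in both libraries of a pair. The SCI library stood apart in lymphocytes that were not cycling as well. Among 9192 genes of non-cycling T barcodes, 456 were at least 2-fold higher (4.96%) and 275 at least 2-fold lower (2.99%) in SCI over Sham. In MSC-i.t over MSC-i.v, 16 of 9208 were higher (0.174%) and 157 lower (1.71%).

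The 268 barcodes were sorted by lineage RNA. The T rule, at least 2 UMIs of Cd3e, Cd3d and Cd3g, was met alone by 150 barcodes, 30 in MSC-i.t, 49 in MSC-i.v, 36 in SCI and 35 in Sham. The B rule, at least 2 UMIs of Cd79b and Ms4a1, was met alone by 31 barcodes, 3 in MSC-i.t, 9 in MSC-i.v, 10 in SCI and 9 in Sham. The NK rule, at least 3 UMIs of Nkg7, Klrd1 and Prf1 with at most 1 Cd3 UMI, was met alone by 36 barcodes, 4 in MSC-i.t, 11 in MSC-i.v, 11 in SCI and 10 in Sham. Another 36 barcodes met more than 1 rule and 15 met none, and both sets are kept apart from the lineages.

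The lineage rules fixed the T, B and NK markers of each set, so the label was checked with markers that no lineage rule used. The erythroid markers include hemoglobin genes, whose share the cycling rule already limits, so they are not an independent check. In cycling T and in cycling B barcodes, 4 progenitor markers were all at 0 in the 4 libraries. In cycling NK barcodes 2 of them were at 0 in all 4 libraries. Together they had 62.3 CPM in cycling NK barcodes of MSC-i.v and 0 in MSC-i.t, SCI and Sham. In T barcodes erythroid markers were higher in cycling than in other barcodes of SCI (24044 against 7435 CPM) and Sham (31945 against 18987 CPM). They were lower in cycling T barcodes of MSC-i.t and MSC-i.v. In NK barcodes erythroid markers were higher in cycling barcodes of MSC-i.v and Sham and lower in MSC-i.t and SCI. In B barcodes they were lower in each library. Hemoglobin over 10% was seen in 1 cycling NK barcode of MSC-i.v and 1 of Sham, and in 2 cycling T barcodes of SCI and 3 of Sham. At least 50 UMIs of the erythroid list were held by 6 cycling T barcodes, 1 cycling NK barcode and 1 that met more than 1 rule. Of the 268 barcodes, 17 had at least 50 UMIs of monocyte genes, and these include 10 of the 15 barcodes without a lineage, which go against the label. SCI had 0 cycling barcodes among 497 barcodes without a lineage (upper exact limit 0.739%).

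The 4 genes of the rule were unevenly detected. Mki67, the proliferation antigen Ki-67, was present in 27 of 30 cycling T barcodes in MSC-i.t, 48 of 49 in MSC-i.v, 34 of 36 in SCI and 35 of 35 in Sham. Cenpf, a kinetochore protein, was present in 114 of the 150 cycling T barcodes, Top2a, the topoisomerase that untangles chromosomes, in 83 and Cdk1, the mitotic kinase, in 80. Per cycling T barcode the 4 genes together had 3 to 147 UMIs in MSC-i.t (median 11), 3 to 62 in MSC-i.v (median 8), 3 to 185 in SCI (median 10) and 3 to 125 in Sham (median 7). At least 10 of these UMIs were seen in 72 of the 150 barcodes and exactly 3 in 21.

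Barcodes just inside the threshold held more RNA of mitosis genes that the rule did not use than those just outside, by more in MSC-i.t and MSC-i.v than in SCI and Sham. At 3 rule UMIs these genes made up 11.2 per 10000 UMIs in MSC-i.t, 16.6 in MSC-i.v, 13.6 in SCI and 11.2 in Sham, from 8 barcodes each in MSC-i.t and SCI and 14 each in MSC-i.v and Sham. At 2 rule UMIs they made up 6.53 in MSC-i.t, 8.87 in MSC-i.v, 10.2 in SCI and 10.3 in Sham. S phase and licensing genes made up 42.5 per 10000 UMIs at 3 rule UMIs against 15.8 at 2 in MSC-i.t, 17.4 against 16.6 in MSC-i.v, 34.3 against 20.3 in SCI and 27.9 against 17.2 in Sham. At 10 or more rule UMIs the mitosis values were 68.9 in MSC-i.t, 85.4 in MSC-i.v, 80.7 in SCI and 78.6 in Sham, and at 0 they lay between 4.54 and 5.39.

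Fewer than 1% of T barcodes were cycling in every library. The share was 0.423% of 7084 barcodes in MSC-i.t (95% interval by the exact Clopper-Pearson method 0.286 to 0.604), 0.566% of 8662 in MSC-i.v (0.419 to 0.747), 0.640% of 5625 in SCI (0.449 to 0.885) and 0.624% of 5613 in Sham (0.435 to 0.866). All 4 intervals overlap. The log2 ratio of the shares was 0.04 (-0.67 to 0.75) for SCI over Sham, -0.60 (-1.35 to 0.14) for MSC-i.t over SCI, -0.18 (-0.83 to 0.48) for MSC-i.v over SCI and -0.42 (-1.12 to 0.27) for MSC-i.t over MSC-i.v. A difference between T cell shares was not detectable at these numbers of cells and this depth.

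Cycling made up a larger share of NK than of T barcodes in each library. It was 2.40% of 167 NK barcodes in MSC-i.t, 3.67% of 300 in MSC-i.v, 7.43% of 148 in SCI and 4.17% of 240 in Sham. NK barcodes were 1.67 to 2.64% of all barcodes under 40% hemoglobin and 7.55 to 17.7% of the cycling ones. Among B barcodes the cycling share was 0.181% of 1654 in MSC-i.t, 0.301% of 2988 in MSC-i.v, 1.15% of 866 in SCI and 0.516% of 1744 in Sham.

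SCI had the highest share in B and in NK barcodes, on 10 and 11 cells. For B barcodes the log2 ratio was 1.16 (-0.29 to 2.64) for SCI over Sham, -2.67 (-5.17 to -0.71) for MSC-i.t over SCI and -1.94 (-3.41 to -0.49) for MSC-i.v over SCI. These B values depend on barcodes that met more than 1 rule. With those that had at least 10 Mzb1 UMIs counted as B, cycling barcodes were 9 of 1666 in MSC-i.t, 13 of 3001 in MSC-i.v, 12 of 872 in SCI and 10 of 1750 in Sham, and the ratio was -1.35 (-2.78 to 0.02) for MSC-i.t over SCI and -1.67 (-2.92 to -0.41) for MSC-i.v over SCI. For NK barcodes it was 0.83 (-0.54 to 2.23) for SCI over Sham, -1.63 (-3.74 to 0.12) for MSC-i.t over SCI and -1.02 (-2.37 to 0.33) for MSC-i.v over SCI. Over all lineages the share was 0.531% in MSC-i.t, 0.589% in MSC-i.v, 0.848% in SCI and 0.770% in Sham, with a log2 ratio of -0.68 (-1.23 to -0.12) for MSC-i.t over SCI and -0.53 (-1.02 to -0.03) for MSC-i.v over SCI. Neither ratio held with the mitotic genes Birc5, Tpx2, Ube2c and Ccna2 in place of the rule genes, where it was -0.061 (-0.67 to 0.55) for MSC-i.t over SCI and 0.018 (-0.54 to 0.59) for MSC-i.v over SCI.

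A threshold in UMIs is met more easily in a deep barcode, and cycling barcodes were deep. The median was 13318 UMIs in cycling against 5725 in other T barcodes of MSC-i.t, 9513 against 3815 in MSC-i.v, 12032 against 6033 in SCI and 12106 against 5155.5 in Sham. With each barcode thinned to 2000 UMIs, the cycling share of T barcodes was 0.122% in MSC-i.t, 0.210% in MSC-i.v, 0.268% in SCI and 0.215% in Sham. SCI was highest and MSC-i.t lowest at either depth. These thinned shares rest on lineages called again after thinning. Thinned NK shares were 1.63% in MSC-i.t, 2.28% in MSC-i.v, 1.31% in SCI and 2.07% in Sham. With the lineages of own depth kept, thinned NK barcodes were cycling in 3 of 159 in MSC-i.t, 7 of 280 in MSC-i.v, 2 of 141 in SCI and 6 of 225 in Sham. SCI was thus not the highest of the thinned NK shares by either way of calling lineages. Thinned B shares were 0.0627% in MSC-i.t, 0.249% in MSC-i.v, 0.357% in SCI and 0.321% in Sham. After thinning, 0 of 16 intervals of ratios between libraries left out 0, against 4 of 16 at own depth, and those 4 ratios were then -2.51 (-8.22 to 1.13) in B barcodes for MSC-i.t over SCI, -0.52 (-3.08 to 2.25) in B barcodes for MSC-i.v over SCI, and over all lineages -0.91 (-1.94 to 0.08) for MSC-i.t over SCI and -0.15 (-0.97 to 0.69) for MSC-i.v over SCI. The intervals were wider, with fewer cycling barcodes left, 1 in MSC-i.t, 4 in MSC-i.v and 3 in SCI among B barcodes. With the lineages of own depth kept, the T ratio of MSC-i.t over SCI was -1.33 (-2.77 to -0.03), from 8 cycling barcodes in MSC-i.t and 16 in SCI. Thinning left out 426 shallower barcodes in MSC-i.t, 2104 in MSC-i.v, 328 in SCI and 645 in Sham, of which 1, in SCI, was cycling.

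Barcodes with at least 40% hemoglobin served as a background, although they were not free of proliferation RNA. Ube2c was at 70.3 CPM in these barcodes of MSC-i.t, 85.7 in MSC-i.v, 50.6 in SCI and 68.8 in Sham, and the source of this RNA was not tested. They reached 3 rule UMIs in 3 of 974 in MSC-i.t (0.308%), 2 of 2600 in MSC-i.v (0.0769%), 0 of 797 in SCI (upper exact limit 0.462%) and 3 of 1145 in Sham (0.262%). Their median depth was 11724.5 UMIs in MSC-i.t, 8256.5 in MSC-i.v, 9069 in SCI and 12127 in Sham, above that of B barcodes. The B share in MSC-i.t lies below the hemoglobin-rich value of its library, but its 3 barcodes had 15 to 78 rule UMIs, whereas hemoglobin-rich barcodes had at most 3 in any library. The T and NK shares lie above the hemoglobin-rich values in all 4 libraries, but the intervals overlap for T barcodes in MSC-i.t, SCI and Sham and for NK barcodes in MSC-i.t.

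**Figure D1:**
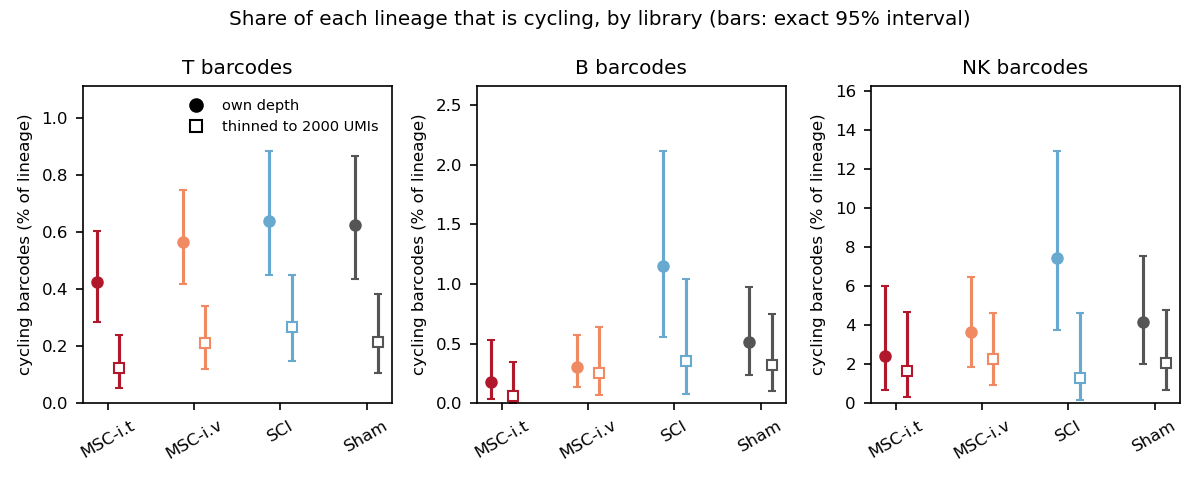
Share of barcodes called cycling (percent, y axis) in MSC-i.t, MSC-i.v, SCI and Sham (x axis) for T, B and NK barcodes, 1 library per group. Filled circles are at own depth, open squares after thinning to 2000 UMIs with lineages called again, and bars are exact 95% intervals of counting error; the T shares lie between 0.423 and 0.640%, and the NK value of SCI is 7.43% at own depth and 1.31% after thinning.

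Cycling T barcodes held RNA of the whole programme of replication and division. Of 19 origin licensing genes, 9 had enough UMIs in every library, at least 20 in cycling barcodes or 20 expected there at the level of other barcodes. All 9 were at least 2-fold higher in cycling than in other T barcodes in all 4 libraries. So were 17 of 19 S phase genes with enough UMIs, 35 of 36 mitosis genes and 16 of 16 genes of the chromatin list. Of 2339 genes in all, 11.2% were at least 2-fold higher in all 4 libraries and 0.599% at least 2-fold lower. The chromatin list also holds microtubule genes, such as Stmn1, Tuba1b and Tubb5. In single libraries, 20.6% of genes were higher and 2.12% lower in MSC-i.t, 21.6% higher and 2.32% lower in MSC-i.v, 16.4% higher and 2.99% lower in SCI, and 19.9% higher and 2.81% lower in Sham. The rule selected cells in the cell cycle, so nothing is read from these counts.

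Most of the 12 genes with the highest ratios of cycling over other T barcodes were mitotic, like the genes of the member rule. Ccna2, cyclin A2, was at 59.5 CPM in cycling against 0.0678 CPM in other T barcodes of MSC-i.t, 84.3 against 0.0537 in MSC-i.v, 101 against 0.0280 in SCI and 71.8 against 0.0317 in Sham. It came first of the 2094 genes ranked, with a log2 ratio of cycling over other of 9.78 in MSC-i.t, 10.62 in MSC-i.v, 11.82 in SCI and 11.15 in Sham. Next came Ns5atp9, the PCNA-associated factor, Racgap1, which acts in cytokinesis, Sgo2, which guards centromere cohesion, Cdca3 and Nusap1, a spindle microtubule protein. Depdc1, Cdkn3, a phosphatase of cyclin-dependent kinases, the checkpoint kinase Bub1, the spindle assembly factor Tpx2, the kinetochore protein Nuf2 and the chromosome motor Kif22 complete the first 12.

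Cdc20, which activates the anaphase-promoting complex, was at 98.4 CPM in cycling against 0.882 CPM in other T barcodes of MSC-i.t, 132 against 1.10 in MSC-i.v, 126 against 0.980 in SCI and 116 against 1.01 in Sham. Nusap1 was at 151 against 0.588 CPM in MSC-i.t, 119 against 0.483 in MSC-i.v, 204 against 0.504 in SCI and 106 against 0.444 in Sham. Both were near 1 CPM or less outside the cycling class in every library. Birc5, the chromosomal passenger survivin, was at 167 CPM in cycling T barcodes of MSC-i.t, 173 in MSC-i.v, 194 in SCI and 196 in Sham, and Plk1 at 54.9 in MSC-i.t, 74.0 in MSC-i.v, 69.5 in SCI and 48.6 in Sham. Over the mitosis list the median log2 ratio was 6.26 in MSC-i.t, 5.94 in MSC-i.v, 6.72 in SCI and 6.01 in Sham.

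Licensing and S phase genes were higher by smaller factors. Mcm5, a subunit of the replicative helicase, was at 119 CPM in cycling against 3.57 CPM in other T barcodes of MSC-i.t, 98.7 against 3.14 in MSC-i.v, 90.6 against 3.95 in SCI and 54.9 against 3.62 in Sham. Its partner subunit Mcm3 was at 121 against 33.9 CPM in MSC-i.t, 117 against 34.0 in MSC-i.v, 131 against 37.5 in SCI and 99.3 against 33.0 in Sham. Pcna was at 378 against 38.7 CPM in MSC-i.t, 315 against 36.3 in MSC-i.v, 289 against 36.4 in SCI and 329.6 against 39.8 in Sham. The median log2 ratio over licensing genes was 3.01 in MSC-i.t, 3.18 in MSC-i.v, 2.75 in SCI and 2.75 in Sham, and over S phase genes 3.22 in MSC-i.t, 2.95 in MSC-i.v, 2.93 in SCI and 2.70 in Sham.

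Genes of the chromatin list were also broadly detected. Stmn1, a microtubule regulator, was seen in 30 of 30 cycling T barcodes in MSC-i.t, 47 of 49 in MSC-i.v, 32 of 36 in SCI and 34 of 35 in Sham. Ezh2, the H3K27 methyltransferase, was at 153 CPM in cycling against 9.79 CPM in other T barcodes of MSC-i.t, 236 against 14.1 in MSC-i.v, 268 against 16.6 in SCI and 148 against 12.5 in Sham.

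Promoters of a pair of mitosis genes and of a pair of licensing genes just described are printed because they show the elements that set these lists apart. Each runs 5′ to 3′ on the gene's strand, from 250 bases before to 50 bases after the start that RefSeq gives in assembly GRCr8. Cdc20 lies at chr5:137255750-137256049 (minus strand), Nusap1 at chr3:127057045-127057344 (plus), Mcm5 at chr19:13488563-13488862 (plus) and Mcm3 at chr9:30733697-30733996 (minus). Capitals mark the letters of the CHR (TTTGAA), the CCAAT box (CCAAT) and an E2F motif (TTCCCGC), searched on both strands. The 3 motifs can overlap at their ends, and a promoter is counted when it holds at least 1 match. Cdc20 and Nusap1 each hold 1 CHR, 2 CCAAT boxes and 0 E2F motifs, whereas Mcm5 and Mcm3 each hold 0 CHR, 3 CCAAT boxes and 1 E2F motif.
Cdc20: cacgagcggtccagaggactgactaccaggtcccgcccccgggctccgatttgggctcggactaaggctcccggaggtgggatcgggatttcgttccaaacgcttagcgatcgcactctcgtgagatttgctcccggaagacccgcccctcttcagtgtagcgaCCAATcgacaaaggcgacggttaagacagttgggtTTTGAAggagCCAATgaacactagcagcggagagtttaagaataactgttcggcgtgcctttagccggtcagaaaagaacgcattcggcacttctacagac
Nusap1: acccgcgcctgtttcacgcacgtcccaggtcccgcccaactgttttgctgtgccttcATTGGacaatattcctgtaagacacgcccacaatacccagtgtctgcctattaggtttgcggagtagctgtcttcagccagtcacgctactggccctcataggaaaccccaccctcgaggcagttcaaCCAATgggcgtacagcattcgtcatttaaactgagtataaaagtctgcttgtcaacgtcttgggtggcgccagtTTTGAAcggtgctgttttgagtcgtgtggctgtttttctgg
Mcm5: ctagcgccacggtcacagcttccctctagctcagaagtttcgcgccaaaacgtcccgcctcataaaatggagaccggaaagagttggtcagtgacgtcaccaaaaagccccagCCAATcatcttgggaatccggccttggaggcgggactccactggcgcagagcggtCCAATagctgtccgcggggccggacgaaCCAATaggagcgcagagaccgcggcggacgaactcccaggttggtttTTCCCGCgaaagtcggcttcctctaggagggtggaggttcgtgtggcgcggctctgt
Mcm3: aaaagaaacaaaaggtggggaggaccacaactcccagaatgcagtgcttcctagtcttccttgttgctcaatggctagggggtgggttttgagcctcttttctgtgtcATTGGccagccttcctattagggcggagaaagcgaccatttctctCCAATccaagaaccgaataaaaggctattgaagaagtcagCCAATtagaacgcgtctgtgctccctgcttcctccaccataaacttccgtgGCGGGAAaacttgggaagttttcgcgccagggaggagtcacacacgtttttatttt

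The same contrast was seen over the lists. Promoters were matched by symbol for 59 of 67 mitosis genes, 36 of 42 S phase genes and 15 of 19 licensing genes. The CHR was found in 41 of 60 promoters of mitosis genes (68.3%), 5 of 39 of S phase genes (12.8%) and 4 of 15 of licensing genes (26.7%). It was found in 12 of 26 promoters of the chromatin list (46.2%), against 18.3% of all 33469 promoters of the same length. The E2F motif was found in 6 of 60 mitosis promoters, 20 of 39 S phase promoters (51.3%) and 6 of 15 licensing promoters, against 4.21% of all. CCAAT boxes were found in 71.7% of mitosis, 51.3% of S phase and 73.3% of licensing promoters, against 37.5% of all. A CHR and a CCAAT box stood together in 32 of 60 mitosis promoters (53.3%), against 7.41% of all, and each of the 4 rule genes held both and no E2F motif. A match is a run of letters and not a shown binding site.

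**Figure D2:**
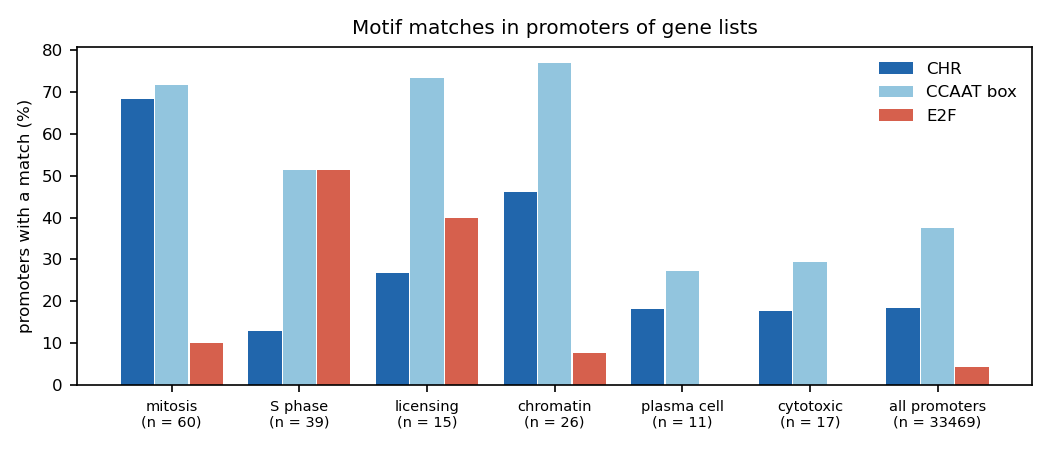
Percent of promoters (y axis) that hold the CHR, the CCAAT box or the E2F motif on either strand, for each gene list and for all 33469 promoters (x axis), in windows of 250 bases before to 50 after the start. The CHR is found in 68.3% of mitosis promoters and the E2F motif in 51.3% of S phase promoters.

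Cycling T barcodes of the same library differed in their balance of S phase and mitosis. UMIs of S phase and licensing genes outnumbered those of mitosis genes in 15 of 30 cycling T barcodes of MSC-i.t, 19 of 49 of MSC-i.v, 12 of 36 of SCI and 16 of 35 of Sham. Per barcode, the S phase share of these UMIs ranged from 0 to 89.5% in MSC-i.t (median 51.4%), from 4.29 to 84.3% in MSC-i.v (median 44.0%), from 9.38 to 81.2% in SCI (median 34.3%) and from 6.45 to 86.3% in Sham (median 49.8%). The ranges overlap. Top2a, Cdk1 and Cenpf are known to peak in G2 and mitosis, and how many cells early in S phase the rule missed was not tested.

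Summed over cycling T barcodes, mitosis genes were highest in SCI. They had 5963 CPM in MSC-i.t, 5962 in MSC-i.v, 6866 in SCI and 4927 in Sham, a log2 ratio of 0.48 (0.40 to 0.56) for SCI over Sham, -0.20 (-0.28 to -0.13) for MSC-i.t over SCI and -0.20 (-0.28 to -0.13) for MSC-i.v over SCI. With every barcode weighted equally the ratio was 0.14 for SCI over Sham and -0.06 for both MSC-i.t over SCI and MSC-i.v over SCI. S phase and licensing genes had 5979 CPM in MSC-i.t, 5043 in MSC-i.v, 4695 in SCI and 4809 in Sham. Their log2 ratio was -0.03 (-0.12 to 0.05) for SCI over Sham, 0.35 (0.27 to 0.43) for MSC-i.t over SCI and 0.25 (0.17 to 0.33) for MSC-i.t over MSC-i.v, and with a threshold of 5 rule UMIs the last was -0.04.

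Cycling NK barcodes differed more between libraries in this balance. S phase and licensing UMIs outnumbered mitosis UMIs in 1 of 4 in MSC-i.t, 1 of 11 in MSC-i.v, 9 of 11 in SCI and 2 of 10 in Sham. The S phase share per barcode ranged from 22.2 to 71.7% in MSC-i.t (median 42.2%), from 5.56 to 77.4% in MSC-i.v (median 20.0%), from 37.5 to 88.1% in SCI (median 76.5%) and from 11.1 to 85.5% in Sham (median 32.8%). The ranges overlap, with SCI shifted to the high end. S phase and licensing genes summed to 5502 CPM in MSC-i.t, 2616 in MSC-i.v, 8279 in SCI and 4714 in Sham, and mitosis genes to 5440.2 CPM in MSC-i.t, 7725 in MSC-i.v, 3561 in SCI and 5723 in Sham.

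For SCI over Sham the log2 ratio in cycling NK barcodes was 0.81 (0.63 to 1.00) for S phase and licensing and -0.68 (-0.90 to -0.47) for mitosis genes. For MSC-i.v over SCI it was -1.66 (-1.89 to -1.44) for S phase and licensing and 1.12 (0.92 to 1.32) for mitosis genes. In other NK barcodes the mitosis ratio had the opposite sign, at 0.78 (0.59 to 0.97) for SCI over Sham and -0.79 (-0.98 to -0.60) for MSC-i.v over SCI. With the deepest barcode of each library left out, the ratio of S phase and licensing to mitosis UMIs was 1.08 in MSC-i.t, 0.249 in MSC-i.v, 3.24 in SCI and 0.830 in Sham, and with it 1.01 in MSC-i.t, 0.339 in MSC-i.v, 2.33 in SCI and 0.824 in Sham.

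Single genes of cycling NK barcodes had the same order. Ube2c, the ubiquitin-conjugating enzyme of the anaphase-promoting complex, was at 93.3 CPM in MSC-i.t (1 barcode), 698 in MSC-i.v (6 barcodes), 22.0 in SCI (1 barcode) and 281 in Sham (6 barcodes). Pcna was at 435 CPM in cycling against 65.3 CPM in other NK barcodes of MSC-i.t, 212 against 56.7 in MSC-i.v, 650.4 against 124 in SCI and 396 against 52.3 in Sham. The SCI level of Pcna was the highest in both classes. Mcm5 was at 93.3 against 15.4 CPM in MSC-i.t, 12.5 against 13.9 in MSC-i.v, 154 against 39.0 in SCI and 51.1 against 5.70 in Sham.

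Summed S phase and licensing UMIs outnumbered mitosis UMIs in cycling B barcodes of each library. The same held at 0 rule UMIs over all lineages, at 8.09 against 4.75 per 10000 UMIs in MSC-i.t and 7.57 against 4.54 in MSC-i.v. It was 8.23 against 5.39 in SCI and 7.94 against 4.60 in Sham, so a ratio above 1 does not by itself set cycling B barcodes apart. In cycling B barcodes the ratio of S phase and licensing to mitosis UMIs was 1.18 in MSC-i.t, 1.52 in MSC-i.v, 1.37 in SCI and 1.26 in Sham. S phase UMIs were in the majority in 18 of the 31.

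**Figure D3:**
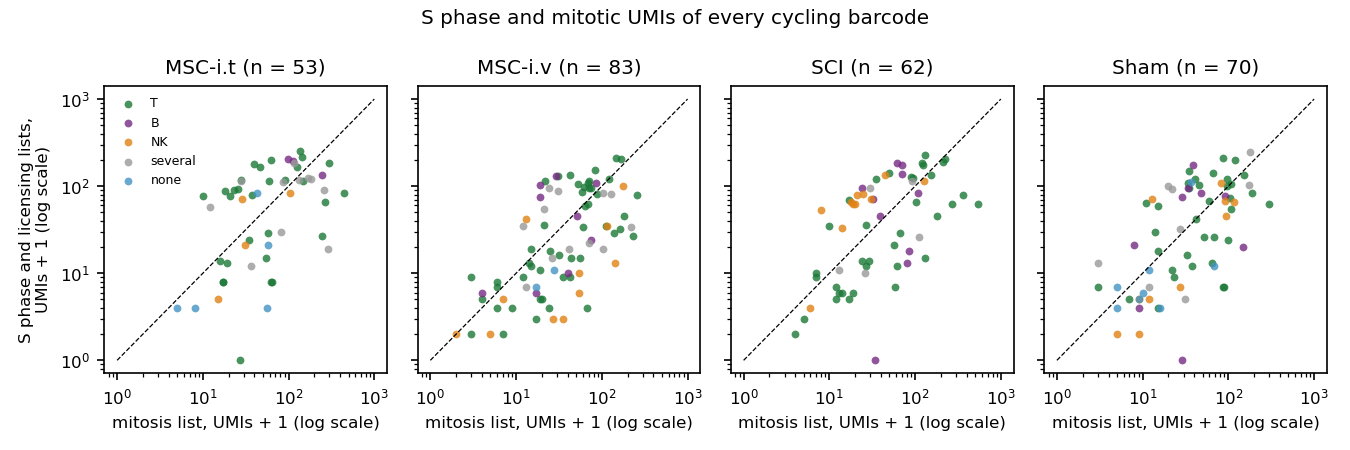
Each point is 1 cycling barcode, with its UMIs of mitosis genes plus 1 (x axis) and of S phase and licensing genes plus 1 (y axis), both log scaled, in 1 panel per library; colours give the lineage and the dashed line marks equal values. Of 11 NK points, 9 lie above the line in SCI and 1 in MSC-i.v.

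Regulators of entry into the cycle were mostly too low to weigh. Of 21 genes of G1 and S control, 4 had enough UMIs in T barcodes of all 4 libraries, of which Ccnd3 was at least 2-fold higher and Myc at least 2-fold lower in cycling barcodes of each. Of all genes with enough UMIs, 11.2% were higher and 0.599% lower in all 4 libraries. Ccnd3, the D cyclin of lymphocytes, was at 162 CPM in cycling against 45.8 CPM in other T barcodes of MSC-i.t, 175 against 46.6 in MSC-i.v, 103 against 51.0 in SCI and 158 against 51.7 in Sham. Myc, a transcription factor of cell growth, was at 52.6 against 121 CPM in MSC-i.t, 26.7 against 86.3 in MSC-i.v, 46.4 against 99.6 in SCI and 44.4 against 106 in Sham.

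Few genes that hold cells out of the cycle were at least 2-fold lower in cycling T barcodes of every library. Btg1, an antiproliferative gene, was at 188 CPM in cycling against 446 CPM in other T barcodes of MSC-i.t, 181 against 439 in MSC-i.v, 409 against 1152 in SCI and 167 against 439 in Sham, so that both classes were highest in SCI. Pik3ip1, an inhibitor of PI3 kinase, was at 20.6 against 67.2 CPM in MSC-i.t, 22.6 against 57.8 in MSC-i.v, 8.43 against 70.2 in SCI and 23.2 against 62.0 in Sham. With Pim2, Slfn5, Bicdl1 and Arl5c they are the 6 genes furthest down in all 4 libraries, with log2 ratios between -3.10 and -1.19. Of 20 brake genes, 11 had enough UMIs in all 4 libraries, of which Btg1 was lower and Cdkn3 higher in all of them. Among all genes, 0.599% were lower and 11.2% higher in all 4, so 1 of 11 higher is near the share of all genes. Cdkn3 is itself known to be made in mitosis.

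Genes of naive T cells had lower sums in cycling T barcodes. The list summed to 837 CPM in cycling against 1327 CPM in other T barcodes of MSC-i.t, 802 against 1212 in MSC-i.v, 885 against 1632 in SCI and 739.5 against 1306 in Sham, although 0 of its 8 genes with enough UMIs were past 2-fold in all 4 libraries. Il7r, the interleukin 7 receptor, was at 22.9 against 61.1 CPM in MSC-i.t, 24.7 against 64.5 in MSC-i.v, 50.6 against 70.1 in SCI and 21.1 against 58.5 in Sham. Of 29 activation genes, 8 had enough UMIs in all 4 libraries and 1, Icos, was at least 2-fold higher in each, a share near the 11.2% of all genes. Icos, a costimulatory receptor of activated T cells, was at 133 against 51.0 CPM in MSC-i.t, 183 against 50.03 in MSC-i.v, 228 against 54.6 in SCI and 106 against 49.0 in Sham.

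Glycolysis genes had higher sums in cycling than in other T barcodes. They summed to 3146 CPM in cycling against 1587 CPM in other T barcodes of MSC-i.t, 3565 against 1504 in MSC-i.v, 2828 against 1634 in SCI and 2971 against 1589 in Sham. Ldha, lactate dehydrogenase A, was at 842 against 381 CPM in MSC-i.t, 1143 against 367 in MSC-i.v, 782 against 388 in SCI and 909 against 386 in Sham. Of 7 glycolysis genes with enough UMIs, 3 were at least 2-fold higher in all 4 libraries, against 11.2% of all genes, as were 0 of 11 mitochondrial genes and 0 of 7 genes of polyamine, purine and iron supply. The median log2 ratio was above 0 for each of these lists in every library. It was 0.60 to 1.10 for glycolysis, 0.56 to 0.90 for mitochondrial genes and 0.40 to 0.69 for the supply genes.

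**Figure D4:**
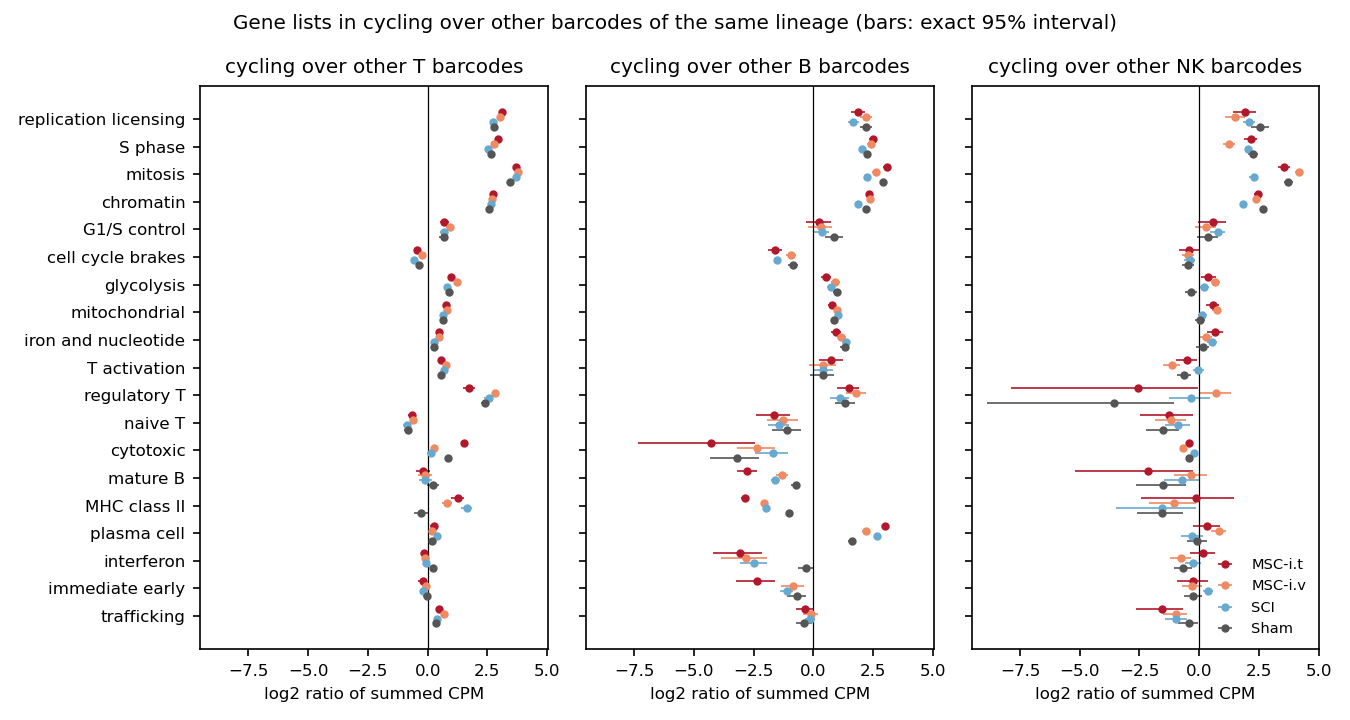
Log2 ratio of summed CPM in cycling over other barcodes (x axis) for each gene list (y axis), in 1 panel per lineage, with 1 marker per library and bars for exact 95% counting intervals. In T barcodes the mitosis list lies farthest to the right and the naive list left of 0 in all 4 libraries.

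Foxp3, the defining transcription factor of regulatory T cells, was found in more of the cycling than of the other T barcodes. It had at least 1 UMI in 1 of 30 cycling T barcodes of MSC-i.t (3.33%, 0.0844 to 17.2), 11 of 49 of MSC-i.v (22.4%, 11.8 to 36.6), 4 of 36 of SCI (11.1%, 3.11 to 26.1) and 8 of 35 of Sham (22.9%, 10.4 to 40.1). In other T barcodes the share was 2.14% in MSC-i.t, 2.33% in MSC-i.v, 1.72% in SCI and 2.67% in Sham. In other B barcodes, which should lack it, the share was 0.0606% in MSC-i.t, 0.101% in MSC-i.v, 0% of 856 in SCI (upper exact limit 0.430%) and 0.173% in Sham, at median depths of 2045 to 3220.5 UMIs. All but the MSC-i.t interval lie above the shares of other T barcodes.

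Depth moved with the Foxp3 shares too. Thinned to 2000 UMIs, Foxp3 was seen in 3.33% of cycling against 0.937% of other T barcodes of MSC-i.t, 8.16 against 1.29% in MSC-i.v, 0 of 36 (upper exact limit 9.74%) against 0.838% in SCI and 5.71 against 1.58% in Sham. As a level, which does not depend on a threshold, Foxp3 was at 9.15 CPM in cycling against 5.54 CPM in other T barcodes of MSC-i.t, 47.3 against 7.25 in MSC-i.v, 35.8 against 4.34 in SCI and 21.1 against 7.68 in Sham. In SCI, 1 barcode gave 8 of the 17 Foxp3 UMIs.

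The rest of the regulatory list was uneven. Il2ra, the high-affinity interleukin 2 receptor chain, was at 4.58 CPM in cycling against 12.9 CPM in other T barcodes of MSC-i.t, 34.9 against 16.1 in MSC-i.v, 67.4 against 11.2 in SCI and 16.9 against 13.99 in Sham. Capg, an actin-capping protein that is not specific to regulatory T cells, gave 64.6 to 76.7% of the list's UMIs in cycling T barcodes. Without Capg the list summed to 96.1 against 94.1 CPM in MSC-i.t, 236 against 99.6 in MSC-i.v, 221 against 98.1 in SCI and 158 against 99.7 in Sham. The log2 ratio was then 0.03 (-0.44 to 0.47) in MSC-i.t, 1.25 (0.97 to 1.52) in MSC-i.v, 1.17 (0.88 to 1.45) in SCI and 0.67 (0.32 to 1.00) in Sham, and the MSC-i.t interval alone holds 0.

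Co-receptor RNA placed cycling T barcodes in both main T cell classes. Cd8a or Cd8b without Cd4 was found in 14 of 30 cycling T barcodes of MSC-i.t (46.7%), 16 of 49 of MSC-i.v (32.7%), 16 of 36 of SCI (44.4%) and 12 of 35 of Sham (34.3%), against 33.3 to 35.0% of other T barcodes and 4.30 to 5.99% of other B barcodes. Cd4 without Cd8 was found in 2 of 30 in MSC-i.t (6.67%), 9 of 49 in MSC-i.v (18.4%), 3 of 36 in SCI (8.33%) and 8 of 35 in Sham (22.9%), against 8.24 to 13.7% of other T barcodes and 0.350 to 0.504% of other B barcodes. Between 38.9 and 49.0% of cycling T barcodes had RNA of neither. Depth moved with these shares. Thinned to 2000 UMIs, Cd8a or Cd8b without Cd4 was found in 26.7% of cycling against 31.3% of other T barcodes of MSC-i.t, 28.6 against 30.3% in MSC-i.v, 33.3 against 30.5% in SCI and 25.7 against 30.9% in Sham. Cd4 without Cd8 was then found in 3.33 against 4.81% in MSC-i.t, 10.2 against 4.54% in MSC-i.v, 2.78 against 5.48% in SCI and 2.86 against 4.63% in Sham, so neither share was higher in cycling barcodes of all 4 libraries.

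Cytotoxic genes were highest in cycling T barcodes of MSC-i.t, carried by few cells. Gzma, granzyme A, had 196 UMIs there, from barcodes with 76, 45, 42 and 33 UMIs, and 0 from the other 26 cycling T barcodes. Its level was 448 CPM in cycling against 9.07 CPM in other T barcodes of MSC-i.t, 12.3 against 5.48 in MSC-i.v, 0 against 4.85 in SCI and 16.9 against 11.7 in Sham. Ccl5, a chemokine of cytotoxic cells, was at 1014 against 219 CPM in MSC-i.t (9 barcodes), 208 against 190.2 in MSC-i.v, 82.2 against 256 in SCI and 433 against 256 in Sham. Both genes stood above the other T barcodes by the most in MSC-i.t. Without Tyrobp and Fcer1g, adaptors that myeloid cells also express, the cytotoxic list summed to 2945 against 908 CPM in MSC-i.t, 1151 against 806 in MSC-i.v, 979.96 against 870.04 in SCI and 1452 against 954 in Sham.

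Between libraries, cycling T barcodes shared with other T barcodes many of the gene differences in which SCI was higher. In SCI over Sham, 77 of 1382 genes with at least 50 UMIs in 1 library were at least 2-fold higher (5.57%) and 39 at least 2-fold lower (2.82%). Of these, 47 of the 77 and 18 of the 39 were also past 2-fold in the same direction in other T barcodes, which is 10.3% of the 456 and 6.55% of the 275 called there. In MSC-i.t over SCI, 13 of 1351 were higher (0.962%) and 77 lower (5.7%), and in other T barcodes 0.97 and 5.7%. The same genes were called in both classes for 1 of the 13 and 50 of the 77. In MSC-i.v over SCI, 10 of 1387 were higher (0.721%) and 67 lower (4.83%), and in other T barcodes 3.07 and 4.9%. Here 3 of the 10 and 47 of the 67 were called in both. The pair without SCI, MSC-i.t over MSC-i.v, had 9 of 1308 higher (0.688%) and 19 lower (1.45%), of which 0 and 10 were also called in other T barcodes.

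Taf10, a subunit of the transcription factor TFIID, led the genes higher in SCI. It was at 22.9 CPM in MSC-i.t, 45.2 in MSC-i.v, 371 in SCI and 14.8 in Sham in cycling T barcodes, and its log2 ratio for SCI over Sham was 4.65 (3.58 to 5.98) in cycling against 3.47 in other T barcodes. Snx20, Cdv3, Lmnb1, Alyref and Purb followed, with log2 ratios of SCI over Sham from 2.76 to 4.37 in cycling and from 2.86 to 4.03 in other T barcodes. All 6 thus stood high in SCI in both classes. Lmnb1, lamin B1 of the nuclear envelope, was at 196 CPM in SCI against 21.1 CPM in Sham in cycling T barcodes.

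The 6 genes furthest down in SCI over Sham, Tyrobp, Mgst1, Mnda, Cybb, Mal and Gzmk, each came mostly from 1 Sham barcode, which gave between 58.7 and 90% of the gene's UMIs. Tyrobp was at 12.6 CPM in SCI against 600.1 CPM in Sham, where 1 barcode gave 60.9% of its UMIs. Mnda had 0 UMIs in SCI against 114 CPM in Sham, and Cybb, the phagocyte oxidase subunit, 6.32 CPM in SCI against 112 CPM in Sham, with 1 Sham barcode giving 87.0% of Mnda and 67.9% of Cybb. The monocyte list of 9 genes summed to 52.6 CPM in MSC-i.t, 1209 in MSC-i.v, 37.9 in SCI and 5563 in Sham in cycling T barcodes, and 0 of 8 monocyte markers were at 0 in all 4 libraries. In Sham, 2 barcodes held 1849 and 738 of these UMIs while the next held 4. Without barcodes with monocyte RNA, Mnda had 0 UMIs in SCI and 1 in Sham, Cybb 3 in SCI and 1 in Sham, Mgst1 2 in SCI and 3 in Sham, and Mal 0 in both, so that no ratio is given for Mnda, Cybb, Mgst1 and Mal. Tyrobp and Gzmk stayed lower in SCI. Tyrobp then had 6 UMIs in SCI and 54 in Sham, and Gzmk was unchanged, with 4 in SCI and 63 in Sham.

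In MSC-i.t over SCI the 6 genes furthest up were Gzma, Gzmk, Gzmbl3, Ccl5, Cd8b and Ifi27. Gzma reached 448 CPM in MSC-i.t, against 0 UMIs in SCI, at least 6.15 higher on the log2 scale against a floor of 3 counts over the SCI barcodes (lower end of the 95% counting interval 5.84). Gzmk, granzyme K, was at 329 CPM in MSC-i.t (6 barcodes) against 8.43 CPM in SCI (2 barcodes), a log2 ratio of 5.29 (3.90 to 7.18). The cytotoxic list had a log2 ratio of 1.56 (1.41 to 1.71) for MSC-i.t over SCI in cycling T barcodes and 0.18 (0.16 to 0.20) in other T barcodes. For MSC-i.t over MSC-i.v it was 1.17 (1.04 to 1.31) in cycling and -0.04 (-0.06 to -0.02) in other T barcodes. The cytotoxic difference was thus larger among cycling cells, on the few barcodes named.

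MSC-i.v over SCI had Gzmk, Tyrobp, Ifi27, Fdps, Ccl5 and Hopx furthest up. Ifi27, an interferon-inducible gene, was at 462 CPM in cycling against 422 CPM in other T barcodes of MSC-i.t, 399 against 258 in MSC-i.v, 112 against 202 in SCI and 837 against 741 in Sham, lowest in SCI and highest in Sham in both classes. The interferon list had the same ends, at 831 against 914 CPM in MSC-i.t, 879.9 against 937 in MSC-i.v, 721 against 749.9 in SCI and 1475 against 1279 in Sham. Among its genes with at least 50 UMIs, 1 of 4 was at least 2-fold lower in SCI over Sham (2.82% of all genes). In cycling T barcodes 1 of 3 was higher in MSC-i.t over SCI (0.962% of all) and 1 of 3 in MSC-i.v over SCI (0.721%). The list was not summed without Ifi27, so nothing separate from Ifi27 is read from it. Capg was among the genes lower in MSC-i.t than in MSC-i.v, at 261 CPM from 9 of 30 barcodes against 668 CPM from 28 of 49 (log2 ratio -1.36).

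Immediate early genes stood high in SCI whether or not the cells were cycling. The list summed to 542 CPM in cycling against 623 CPM in other T barcodes of MSC-i.t, 506 against 529.5 in MSC-i.v, 1022 against 1169.5 in SCI and 611 against 617 in Sham. In NK barcodes it was at 684 in cycling against 818 CPM in other barcodes of MSC-i.t, 698 against 855 in MSC-i.v, 2205 against 1704 in SCI and 766 against 905 in Sham. Jund, an AP-1 subunit, was at 31.1 CPM in MSC-i.t, 12.5 in MSC-i.v, 606 in SCI and 63.9 in Sham in cycling NK barcodes, from 1 barcode in MSC-i.t, 1 in MSC-i.v, 11 in SCI and 2 in Sham. Jund was thus detected in every cycling NK barcode of SCI.

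Gene differences between libraries were also counted in cycling NK barcodes. In SCI over Sham, 5.28% of 246 genes were at least 2-fold higher and 2.85% lower, around a median log2 ratio of 0.23 over all of them. In MSC-i.t over SCI, 1.69% of 236 were higher and 3.81% lower, in MSC-i.v over SCI 10.8 and 6.34% of 268, and in MSC-i.t over MSC-i.v 1.32 and 9.69% of 227. In MSC-i.v, 1 cycling NK barcode held 1382 of the 1386 UMIs of monocyte genes, and without it 4.12% of 243 genes were higher and 6.58% lower in MSC-i.v over SCI, and 1.85% of 162 higher and 4.94% lower in MSC-i.t over MSC-i.v. Jund, Nap1l1, a histone chaperone, and Zfp36l2, an RNA-binding protein, were the 3 genes furthest up in SCI over Sham and the 3 furthest down in MSC-i.t over SCI and in MSC-i.v over SCI. These pairs share the SCI library. Zfp36l2 was at 279.8 CPM in cycling against 208 CPM in other NK barcodes of MSC-i.t, 224 against 221 in MSC-i.v, 1102 against 593 in SCI and 281 against 214 in Sham.

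Cycling B barcodes carried RNA of plasmablasts, cells that divide while turning into antibody-secreting plasma cells. Of 6 plasma cell genes with enough UMIs in all 4 libraries, 5 were at least 2-fold higher in cycling than in other B barcodes in each, against 10.5% of 542 genes in all (4.43% lower). In single libraries, 26.9% of genes were higher and 20.9% lower in MSC-i.t, 20.6% higher and 12.9% lower in MSC-i.v, 21.2% higher and 18.3% lower in SCI, and 17.4% higher and 7.58% lower in Sham. Mzb1, a chaperone of the endoplasmic reticulum in antibody-making cells, was at 2660.2 CPM in cycling against 179.8 CPM in other B barcodes of MSC-i.t, 1379.6 against 180.4 in MSC-i.v, 3239.6 against 359 in SCI and 1432 against 294 in Sham. Tnfrsf17, the plasma cell survival receptor BCMA, was at 720.2 against 24.1 CPM in MSC-i.t, 673 against 22.1 in MSC-i.v, 669 against 41.1 in SCI and 313 against 34.0 in Sham. Both were higher in cycling B barcodes in each library.

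The plasma cell RNA was concentrated in single cells, most of all in Sham. Mzb1 was found in 3 of 3 cycling B barcodes in MSC-i.t, 8 of 9 in MSC-i.v, 6 of 10 in SCI and 3 of 9 in Sham, where 1 barcode gave 88.3% of its UMIs. Over the plasma cell list, the 3 highest barcodes of MSC-i.t had 325, 254 and 195 UMIs, those of MSC-i.v 160, 123 and 120, those of SCI 432, 416 and 288, and those of Sham 280, 42 and 18. The list summed to 8991 CPM in MSC-i.t, 4991 in MSC-i.v, 9280.5 in SCI and 4023 in Sham. Its log2 ratio was 1.21 (1.04 to 1.37) for SCI over Sham, -0.05 (-0.17 to 0.08) for MSC-i.t over SCI and -0.89 (-1.05 to -0.74) for MSC-i.v over SCI, against 0.17 for SCI over Sham, -0.41 for MSC-i.t over SCI and -0.43 for MSC-i.v over SCI in other B barcodes.

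Other genes of the plasma cell list stood higher as well. Sec11c, a signal peptidase subunit, was at 1777 CPM in cycling against 99.0 CPM in other B barcodes of MSC-i.t, 942 against 84.3 in MSC-i.v, 1723 against 129 in SCI and 606 against 135 in Sham. Prdm1, the factor Blimp-1 that ends the B cell programme, was at 105 against 1.71 CPM in MSC-i.t, 33.6 against 2.92 in MSC-i.v, 71.1 against 8.79 in SCI and 20.9 against 3.45 in Sham. It came from 3 cycling B barcodes in MSC-i.t, 1 in MSC-i.v, 5 in SCI and 1 in Sham.

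Mature B cell and MHC class II genes had lower sums in cycling B barcodes. The mature list summed to 592 CPM in cycling against 4053 CPM in other B barcodes of MSC-i.t, 1481 against 3653 in MSC-i.v, 1421 against 4308 in SCI and 2372 against 3983 in Sham. MHC class II genes, which present peptides to CD4 T cells, summed to 3415 against 24611 CPM in MSC-i.t, 5575 against 23378 in MSC-i.v, 6236 against 24643 in SCI and 11119 against 22331 in Sham. Sham, with the lowest plasma cell sum, had the highest sums of both lists. Pax5, the factor that holds B cell identity, was at 0 in cycling B barcodes of all 4 libraries. So were 5 of 6 precursor markers, Igll1, Rag1 and Dntt among them, and the 6 summed to 11.2 CPM in MSC-i.v.

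Between libraries, cycling B barcodes of SCI over Sham had 8.58% of 443 genes at least 2-fold higher and 2.03% lower. In MSC-i.t over SCI, 0.682% of 440 genes were higher and 8.64% lower (median log2 ratio over all of them -0.16), in MSC-i.v over SCI 0.909 and 7.95% of 440, and in MSC-i.t over MSC-i.v 8.2 and 7.42% of 256 (median -0.19). The 3 genes furthest up in SCI over Sham were Ybx1, an RNA-binding protein, Jchain, the joining chain of secreted IgM and IgA, and Ckap4. Jchain was at 232 CPM in MSC-i.t, 112 in MSC-i.v, 479.7 in SCI and 52.2 in Sham, from 3 barcodes in MSC-i.t, 4 in MSC-i.v, 5 in SCI and 2 in Sham. Those furthest down were Fcmr, the IgM Fc receptor, at 0 CPM in MSC-i.t, 336 in MSC-i.v, 159.9 in SCI and 554 in Sham, Cd53 and Cd79b.

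Mzb1 also marked cells outside the B set. Cycling barcodes with at least 10 Mzb1 UMIs, a class chosen after the values were seen, numbered 10 in MSC-i.t, 7 in MSC-i.v, 8 in SCI and 3 in Sham. They were 41.7% of 24 such barcodes in MSC-i.t (22.1 to 63.4), 22.6% of 31 in MSC-i.v (9.59 to 41.1), 42.1% of 19 in SCI (20.3 to 66.5) and 17.6% of 17 in Sham (3.80 to 43.4), and the intervals overlap. Of the 28, 14 were in the B set and 13 met more than 1 lineage rule. They held 40 UMIs of Cd3g, 10 of Cd3d, 9 of Cd3e and 39 of Prf1, with 0 of Nkg7 and Klrd1. Their median depth was 25577.5 UMIs, against 10299.5 in the other cycling barcodes.

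Cytotoxic genes had somewhat lower sums in cycling than in other NK barcodes. The list summed to 34506 CPM in cycling against 46605 CPM in other NK barcodes of MSC-i.t, 30737 against 48459 in MSC-i.v, 42863 against 49491 in SCI and 36648 against 49012 in Sham. Ctsw, cathepsin W, was at 218 against 631 CPM in MSC-i.t, 137 against 536 in MSC-i.v, 121 against 566 in SCI and 345 against 593 in Sham. Gzma was at 1958 against 1876 CPM in MSC-i.t, 2168 against 1468 in MSC-i.v, 3881 against 2146 in SCI and 2619 against 1600.1 in Sham, so the genes of the list did not all differ in 1 direction.

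All 6 genes of the chromatin list with enough UMIs were at least 2-fold higher in cycling NK barcodes in all 4 libraries, against 3.05% of 262 genes (0% lower). The microtubule genes Stmn1, Tuba1b and Tubb5 are among the 6. In single libraries, 11% of genes were higher and 4.55% lower in MSC-i.t, 14.9% higher and 5.27% lower in MSC-i.v, 9.45% higher and 2.95% lower in SCI, and 9.12% higher and 3.72% lower in Sham. Stmn1 was at 2611 CPM in cycling against 169.7 CPM in other NK barcodes of MSC-i.t, 1271 against 68.7 in MSC-i.v, 1742 against 221 in SCI and 1916 against 75.1 in Sham.

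**Figure D5:**
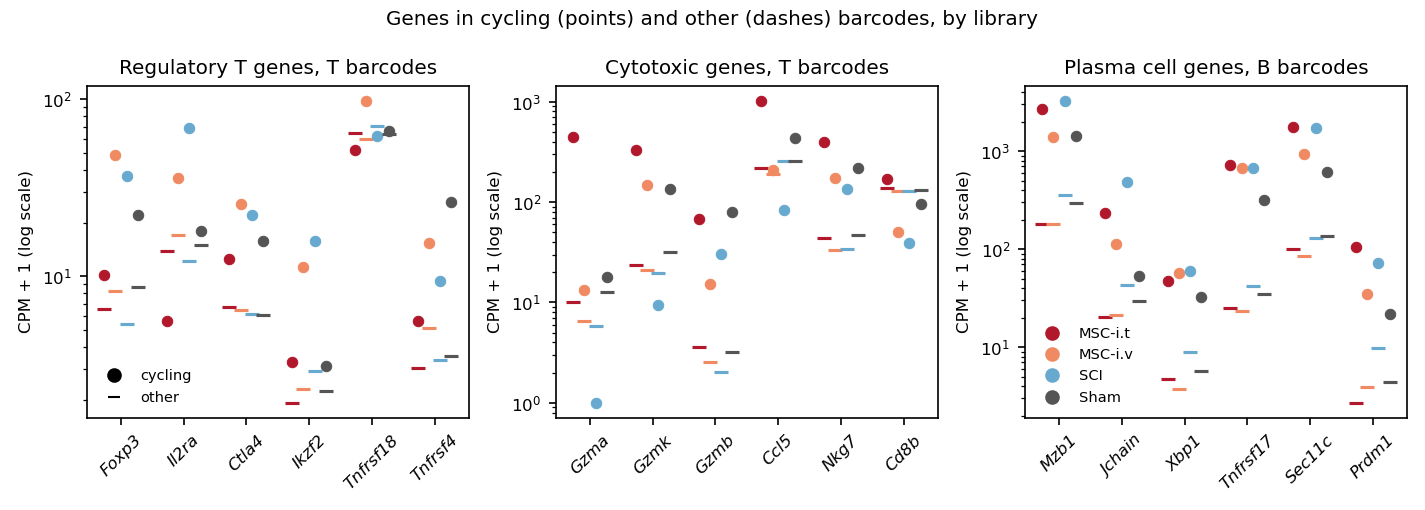
Levels of selected genes (CPM plus 1, log scale, y axis; genes on the x axis) in MSC-i.t, MSC-i.v, SCI and Sham (colours), with points for cycling and dashes for other barcodes: regulatory and cytotoxic genes in T barcodes, plasma cell genes in B barcodes. Gzma in T barcodes reaches 448 CPM in MSC-i.t and is at 0 in SCI, and Mzb1 in B barcodes lies above its dash in all 4 libraries.

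The shares rest on which genes define a cycling cell. With Birc5, Tpx2, Ube2c and Ccna2 in place of the 4 rule genes, 28 of 5625 T barcodes were cycling in SCI and 51 of 5613 in Sham, a log2 ratio of -0.87 (-1.59 to -0.18), against 0.04 with the rule. No doublet caller was run. Cycling barcodes had between 1.60 (NK in SCI) and 9.503 (B in MSC-i.t) times the median UMIs of other barcodes of their lineage, and the part of doublets among them was not tested.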

How the data were processed

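The deposited matrices hold raw UMI counts of 25340 genes in 6794880 barcodes for each of the 4 libraries, unfiltered. Per the file headers they come from Cell Ranger 4, and the submitters' processing notes name the build mRatBN7.2, while the extraction text in the labels describes a bulk poly(A) preparation from cultured cells. Barcodes were kept from 500 UMIs and 200 genes upward when mitochondrial RNA did not exceed 20%. The 4 groups have 1 library each, and 0 columns of per-sample values were left unused.

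UMIs of the cycling and of the other barcodes of a lineage were summed per library and scaled to CPM. Levels and ratios carry exact 95% Poisson and conditional binomial intervals, and shares carry Clopper-Pearson intervals. These cover counting error only, with a floor of 3 counts. For equal depth each barcode was thinned to 2000 UMIs (seed 1). A gene was weighed between libraries with at least 50 UMIs in 1 library, and a difference was counted from 2-fold. Named genes were the 6 highest and 6 lowest ratios between libraries in T barcodes, the 3 and 3 in B and NK barcodes, and the 12 highest and 6 lowest of cycling over other T barcodes. They needed UMIs in 5% of barcodes, and marker genes of other blood cells, sex-linked genes and ribosomal, mitochondrial, hemoglobin, immunoglobulin and receptor segment genes were left out. Other genes were named from 29 gene lists after their values were seen. The members and the lists were chosen with earlier results of these data known, and the barcodes rich in Mzb1 or monocyte RNA after their values were seen.

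Promoters came from RefSeq in GRCr8. No doublet caller was run. The alternatives were other thresholds, filters, lineage rules, rule genes, weightings and depths. Calculations used Python 3.11.15, numpy 2.4.6, scipy 1.17.1, pandas 2.3.3 and matplotlib 3.10.9, and the scripts were tested on simulated data.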

Additional observations from a re-analysis of the deposited data

Results flagged for a closer look

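The log2 ratio between a pair of libraries differed between lineages for the S phase and licensing list and for the mitosis list. In each case below the ratio was above 0 in 1 lineage and below 0 in the other, with 95% counting intervals on either side of 0, and the difference between lineages was not tested.

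For S phase and licensing genes, the ratio of SCI over Sham was lower in cycling B than in cycling NK barcodes by a log2 difference of -1.04. For MSC-i.t over SCI the ratio was higher in T than in NK barcodes by 0.94 and in B than in NK barcodes by 0.95. For MSC-i.v over SCI it was higher in T than in NK barcodes by 1.76 and in B than in NK barcodes by 1.89.

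For mitosis genes, the ratio of SCI over Sham was higher in T than in B barcodes by 0.83 and in T than in NK barcodes by 1.16. For MSC-i.t over SCI the T barcodes differed from B barcodes by -0.79 and from NK barcodes by -0.81, and for MSC-i.v over SCI they differed from NK barcodes by -1.32. For MSC-i.t over MSC-i.v the B barcodes differed from NK barcodes by 1.01. The B ratios behind these differences changed sign with every barcode weighted equally, for SCI over Sham, MSC-i.t over SCI and MSC-i.t over MSC-i.v. The B and NK sets hold between 3 and 11 cycling barcodes in each library.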

How the results depend on the processing

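No paired analysis was possible because each group has 1 library, and leaving out a replicate was likewise not possible. The cause of each change below was not tested.

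With Birc5, Tpx2, Ube2c and Ccna2 as rule genes, the log2 ratio of cycling shares was -0.87 in T and -1.11 in NK barcodes for SCI over Sham, 0.41 in NK barcodes for MSC-i.t over SCI, and over all barcodes -0.48 for SCI over Sham, -0.061 for MSC-i.t over SCI and 0.018 for MSC-i.v over SCI. After thinning it was -0.67 for SCI over Sham, 0.32 for MSC-i.t over SCI and 0.80 for MSC-i.v over SCI in NK barcodes, and -0.76 for MSC-i.t over MSC-i.v over all barcodes. With lineages of own depth kept, an alternative chosen after seeing the data, the thinned ratio was 0.034 in B barcodes for MSC-i.v over SCI, and in NK barcodes -0.91 for SCI over Sham, 0.41 for MSC-i.t over SCI and 0.82 for MSC-i.v over SCI. Of 16 intervals, 4 left out 0 in the values reported, 6 with a threshold of 2 UMIs, 4 with 5 UMIs, 3 with hemoglobin under 10%, 3 with overlapping lineage rules, 2 with the other rule genes and 0 after thinning. Over all barcodes, a threshold of 5 UMIs gave -0.61 (-1.24 to 0.02) for MSC-i.t over SCI and hemoglobin under 10% gave -0.49 (-0.99 to 0.02) for MSC-i.v over SCI. In B barcodes, overlapping lineage rules gave -1.09 (-2.25 to 0.06) for MSC-i.t over SCI, and a threshold of 5 UMIs gave 1.75 (0.14 to 3.49) for SCI over Sham. A threshold of 2 UMIs gave 1.24 (0.04 to 2.49) for SCI over Sham and -1.32 (-2.50 to -0.17) for MSC-i.v over SCI in NK barcodes. A minimum of 1000 UMIs, 10% mitochondrial RNA and leaving out barcodes with monocyte RNA left 4 of 16 intervals without 0.

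Counts of genes at least 2-fold different in cycling T barcodes depended on the UMIs required. The main counts were 116 for SCI over Sham, 90 for MSC-i.t over SCI, 77 for MSC-i.v over SCI and 28 for MSC-i.t over MSC-i.v. With 20 UMIs they were 348 for SCI over Sham (221 higher, 127 lower), 315 for MSC-i.t over SCI (78 and 237), 278 for MSC-i.v over SCI (75 and 203) and 154 for MSC-i.t over MSC-i.v (70 and 84). With 1 UMI in each library they were 1944 for SCI over Sham (922 and 1022), 1832 for MSC-i.t over SCI (813 and 1019), 1915 for MSC-i.v over SCI (608 and 1307) and 1708 for MSC-i.t over MSC-i.v (947 and 761). With overlapping lineage rules 148 (53 and 95) were counted for MSC-i.t over SCI and 70 (34 and 36) for MSC-i.t over MSC-i.v. With the ratio in other T barcodes subtracted there were 53 for SCI over Sham (26 and 27), 30 for MSC-i.t over SCI (12 and 18), 34 for MSC-i.v over SCI (12 and 22) and 17 for MSC-i.t over MSC-i.v (12 and 5). In cycling NK barcodes, leaving out monocyte RNA gave 26 (10 and 16), against 46 (29 and 17), for MSC-i.v over SCI and 11 (3 and 8), against 25 (3 and 22), for MSC-i.t over MSC-i.v.

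List ratios between libraries moved as well. With each barcode weighted equally, S phase and licensing genes in T barcodes were at -0.18 for SCI over Sham, 0.45 for MSC-i.t over SCI, 0.0017 for MSC-i.v over SCI and 0.45 for MSC-i.t over MSC-i.v, and mitosis genes at 0.14 for SCI over Sham, -0.060 for MSC-i.t over SCI and -0.059 for MSC-i.v over SCI. In B barcodes mitosis genes were then at 0.29 for SCI over Sham, -0.41 for MSC-i.t over SCI and -0.052 for MSC-i.t over MSC-i.v. Each of these had the opposite sign to the ratio of summed levels. Summed, mitosis genes were at 5274 CPM in MSC-i.t, 3713 in MSC-i.v, 3518 in SCI and 4473 in Sham in cycling B barcodes. With a threshold of 5, S phase and licensing genes in T barcodes were at 0.16 for MSC-i.t over SCI, 0.21 for MSC-i.v over SCI and -0.042 for MSC-i.t over MSC-i.v, and mitosis genes at 0.28 for SCI over Sham and -0.092 for MSC-i.t over MSC-i.v. Without monocyte RNA, S phase and licensing genes were at -0.15 for SCI over Sham. Without the top barcode, mitosis genes were at -0.093 for MSC-i.v over SCI and -0.11 for MSC-i.t over MSC-i.v.

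For cycling over other T barcodes, thinning gave S phase and licensing ratios of 2.82 in MSC-i.t, 2.43 in MSC-i.v, 2.21 in SCI and 2.77 in Sham, and mitosis ratios of 3.63 in MSC-i.t, 3.67 in MSC-i.v, 3.50 in SCI and 3.55 in Sham. Weighting barcodes equally gave S phase and licensing ratios of 2.82 in MSC-i.t, 2.46 in MSC-i.v, 2.36 in SCI and 2.57 in Sham, and mitosis ratios of 3.59 in MSC-i.t, 3.66 in MSC-i.v, 3.46 in SCI and 3.52 in Sham.

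With the ratio in other T barcodes subtracted, Cdv3 was at -0.62 for SCI over Sham, 0.68 for MSC-i.t over SCI and 0.45 for MSC-i.v over SCI, Purb at -0.70 (SCI over Sham) and 0.63 (MSC-i.v over SCI), Taf10 at 0.0097 for MSC-i.t over SCI and 0.18 for MSC-i.v over SCI, Hopx at -0.18 for MSC-i.v over SCI, and RT1-Db1 at 0.10 for MSC-i.t over MSC-i.v.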

Other observations

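Cycling barcodes with at least 50 UMIs of monocyte genes numbered 2 in MSC-i.t, 6 in MSC-i.v, 0 in SCI and 9 in Sham, a class chosen after the values were seen. Of these 17, 10 had no lineage, 4 were in the T set, 1 was in the NK set and 2 met more than 1 lineage rule. In Sham, 7 of the 8 cycling barcodes without a lineage were of this kind, and all 8 of these barcodes held Mki67, while 1 held Top2a and 1 held Cdk1. The rule genes together reached at most 9 UMIs in any of the 8.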
